A study of Mus musculus with 4 samples.

Results

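The ribosomal protein genes encode the proteins of the cytosolic ribosome, and 87 of them were represented on the array by 175 probes. They were chosen by name alone: Rpl or Rps followed by a digit, Rplp0, Rplp1, Rplp2 and Rpsa, without the Rps6k kinases, Rps27l and pseudogene names. The files carried accessions rather than gene names, so symbols were taken from RefSeq accessions. Of the 87 genes, 84 were detected well enough to be tested, among 20066 genes tested in all. The 3 genes not tested were Rpl39l, Rpl3l and Rps4l, which are paralogues of core ribosomal protein genes. The 84 comprised 42 large subunit genes, 31 small subunit genes, the 3 P stalk genes, 4 paralogues and 4 further names that matched.

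The data came from 4 two-colour arrays of cell lines derived from fetal liver of mice of C57BL/6J x CD-1 background, all transformed with p185 BCR-ABL1, a leukaemia-associated tyrosine kinase. R/R lines were homozygous for Cdk4 R24C and Cdk6 R31C, substitutions known to free these G1 kinases from INK4 inhibitors, and wild-type (WT) lines carried neither. R/R clones 1, 2 and 3 (R/R RNA in Cy5) and an R/R pool (R/R RNA in Cy3) were each compared with a WT pool, and every value below is a log2 ratio of R/R over WT. Each R/R line is 1 clone that arose spontaneously, the clone IDs of clones 1 and 2 share a stem, and the labels do not say what either pool contained. The WT pool was therefore 1 control sample with no spread of its own. The p-values take no spread from the R/R pool array, since the dye term absorbs its departure from the clones. They rest on the spread among the 3 clones, which limma moderates by that spread over all genes tested. The cultures were asynchronous. Neither a cell stage nor a lineage is given, but all 9 B-lineage markers examined, among them Vpreb1, Igll1 and Pax5, were well above background in both channels of all 4 arrays. None of 3 hepatocyte markers passed that threshold in an R/R channel. Of 3 T-lineage, 4 myeloid, 4 erythroid and 3 stromal markers, 1, 2, 1 and 1 were well above background in every R/R channel.

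Ribosomal proteins assemble with ribosomal RNA in the nucleolus into a small subunit, which decodes mRNA, and a large subunit, which forms peptide bonds; the P stalk recruits elongation factors. Their genes are transcribed from strong promoters, and their mRNAs carry a 5' terminal oligopyrimidine (TOP) tract through which mTORC1 and LARP1 control translation. Unassembled RPL5 and RPL11 bind MDM2 with 5S RNA and so link ribosome assembly to p53, and haploinsufficiency of several ribosomal protein genes causes Diamond-Blackfan anaemia. An array that measures mRNA does not report the control of translation through the TOP tract.

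The start regions of the genes show what the members share beyond their names. RefSeq (GRCm38.p6) gave a start region, from 250 bases before to 50 bases after the annotated start, for 64 of the 84 genes. In 14 of these 64 (21.9%) the first transcribed base was a C followed by 4 pyrimidines, the beginning of a TOP tract, against 3.01% of all 27025 genes with an entry. The letters CGGAAG, the core bound by ETS factors, occurred on either strand in 41 of 64 (64.1%) against 18.8% of all genes. ATGGCG, the core of the YY1 motif, occurred in 29.7% against 10.2%; it can share its final CG with the ETS core. TATAAA occurred in 12.5% against 15.7%, and the E-box CACGTG, known from MYC binding, in 9.38% against 8.09%. A match describes these letters and is no evidence of binding, and a missing tract may reflect the annotated start. The regions from 60 bases before to 20 bases after the start are shown for 4 named genes with a tract at the start and for 3 named without one, the member with the highest ratio (Rps23), the paralogue with the highest ratio (Rpl22l1) and the MDM2-binding Rpl11. Capitals mark the tract that begins at the start and each ETS core on either strand.
Rps6, chr4:86857348-86857427, minus strand: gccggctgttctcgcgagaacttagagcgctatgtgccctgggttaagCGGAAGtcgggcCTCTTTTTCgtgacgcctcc
Rps10, chr17:27635225-27635304, minus strand: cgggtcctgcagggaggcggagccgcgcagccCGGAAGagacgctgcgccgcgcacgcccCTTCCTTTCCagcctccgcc
Rps15a, chr7:118116128-118116207, minus strand: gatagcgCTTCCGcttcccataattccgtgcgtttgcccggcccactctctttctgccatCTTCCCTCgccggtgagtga
Rps18, chr17:33955646-33955725, minus strand: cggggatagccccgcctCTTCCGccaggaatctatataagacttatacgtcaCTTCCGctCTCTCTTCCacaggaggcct
Rps23, chr13:90923062-90923141, plus strand: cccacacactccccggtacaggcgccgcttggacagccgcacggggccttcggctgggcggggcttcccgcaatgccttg
Rpl22l1, chr3:28805448-28805527, plus strand: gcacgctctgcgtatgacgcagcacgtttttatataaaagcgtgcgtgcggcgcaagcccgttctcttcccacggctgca
Rpl11, chr4:136053374-136053453, minus strand: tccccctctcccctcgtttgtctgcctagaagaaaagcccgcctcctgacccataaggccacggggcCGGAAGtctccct
Within these stretches Rps18 held 2 ETS cores and Rpl11 held 1, which lies after its start, while Rps23 and Rpl22l1 held 0.

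No ribosomal protein gene differed between R/R and WT by the test across all genes. Of the 84 members, 0 were called higher and 0 lower (limma, Benjamini-Hochberg adjusted p under 0.05), while 0.513% of all 20066 genes were called, 0.145% higher and 0.369% lower. At an unadjusted p under 0.05, 3 members (3.57%) had a difference, all lower, against 15.4% of all genes. The smallest adjusted p among the members was 0.171. The fitted values spanned -0.45 to 0.35, the median was -0.09 (interquartile range -0.14 to -0.02), and 72 members (85.7%) lay within 0.2 of no difference, against 69.8% of all genes. The median over all genes tested was -0.02. Of the members 17 were above 0 and 67 below, where 46.4% of all genes were above 0. The sign of this small shift depended on how it was computed: the median was 0.02 with the scanner software's own ratios and 0.02 on the clones alone.

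The data bound how large a difference could have been missed, as far as the clones' spread measures error. The 95% confidence intervals of the fit, not adjusted for the number of genes, stayed within 1 log2 unit of 0 for all 84 members. They stayed within 0.5 (1.41-fold) for 75 members (89.3%), against 70.6% of all genes. The outermost limits were -0.73, for Rpl17, and 0.72, for Rps23. The median SE of a member was 0.096, and the median SD between the clones was 0.13, against 0.168 for all genes. These intervals leave out the difference between clones and pool and the spread of WT lines, which the single WT pool cannot give.

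**Figure D1:**
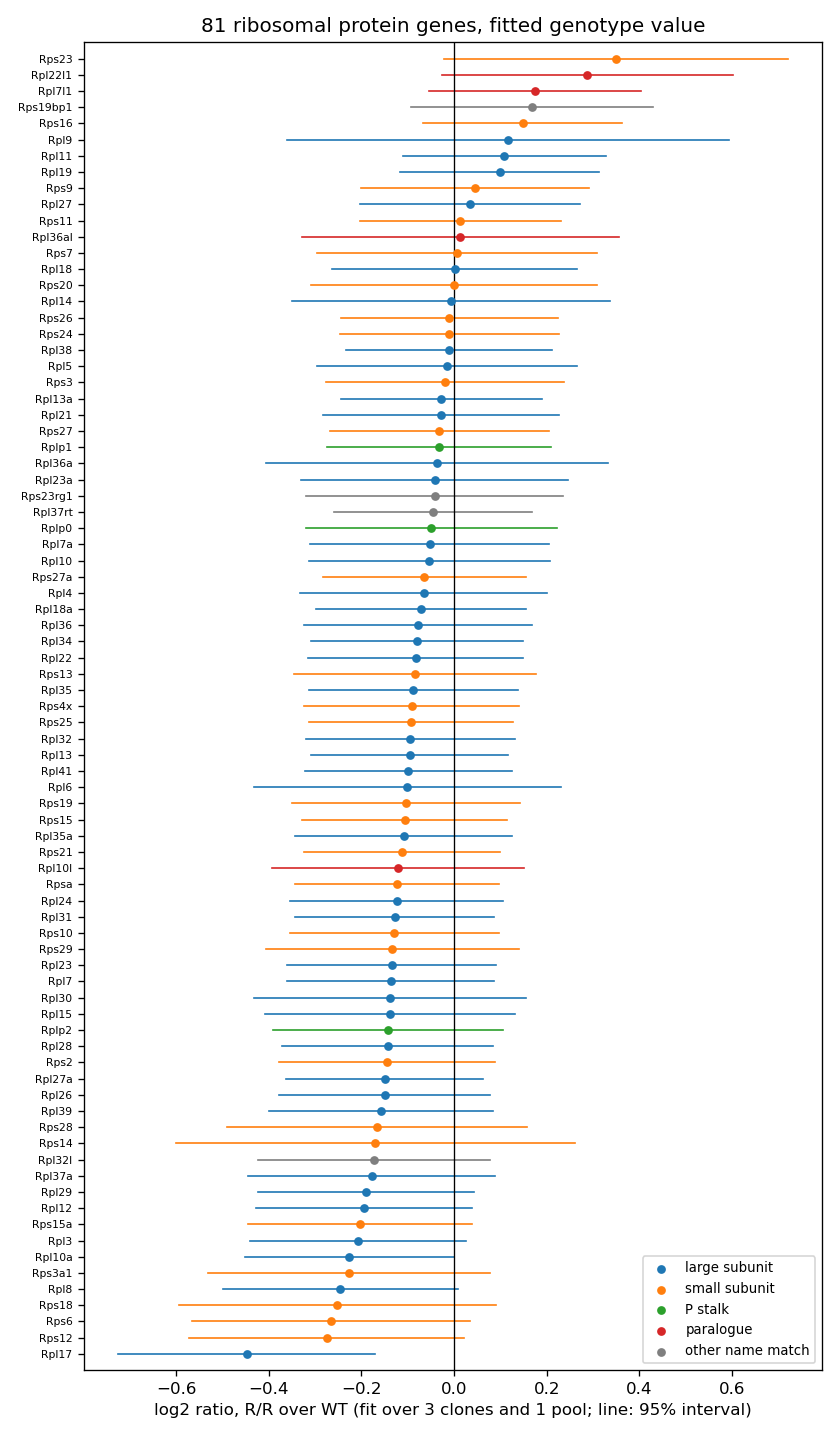
Fitted log2 ratio of R/R over WT (horizontal axis) for 81 of the 84 ribosomal protein genes tested, ordered by value and coloured by class; points are the fit over 3 clones and 1 pool, lines its 95% confidence intervals. Values run from -0.45 (Rpl17) to 0.35 (Rps23), and the intervals of 79 of the genes plotted include 0.

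The arrays did not all show the same picture. In the clones the members' medians were 0.01, 0.07 and 0.06 in clones 1, 2 and 3, with 42, 53 and 47 of 84 members above 0. On the R/R pool array the median was -0.19, with 13 of 84 above 0. All genes had medians of -0.03 to 0.01 on the 4 arrays. The pool value lay below every clone in 49 members (58.3%), against 24.4% of all genes and 22.9% of the other genes among the brightest 10%. In 26 members (31.0%) all 3 clones were above 0 and the pool below 0, against 6.33% of all genes and 5.09% of the other bright genes. The opposite arrangement, clones below 0 and pool above, was seen in 3 members (3.57%), against 5.62% of all genes and 7.42% of the other bright genes. These members were Rps4x, Rpl7a and Rps21, the last at -0.32, -0.32 and -0.33 in the clones and 0.10 on the pool array. The pool array differed from the clone arrays in its RNA and in its dye orientation at the same time, and these cannot be told apart. With the scanner software's own ratios the members' medians were 0.04, 0.01, 0.08 and -0.02 on the 4 arrays. The pool then lay below every clone in 30 members (35.7%), against 21.7% of all genes. It lay above every clone in 18 members (21.4%), against 21.3% of all genes. With these ratios 16 members (19%) had all clones above 0 and the pool below, against 5.45% of all genes and 3.84% of the other bright genes. The opposite arrangement was seen in 8 members (9.52%), against 5.76% of all genes and 7.73% of the other bright genes. With each array only centred on its median, without an intensity-dependent curve, the members stood at 0.85, 1.16 and 0.80 in the clones and at -1.18 on the pool array. Under that setting all genes had medians of 0.13 to 0.57 in the clones and -0.41 on the pool array. The arrangement of clones above 0 and pool below also depended on the probe, in a count added after these values were seen. Of the 26 members that showed it in their brightest probe, 16 had other probes kept. In 2 of these 16 every other probe showed it, and in 12 none did. With the mean of a gene's probes 17 members showed it, and the members' medians were -0.03, -0.004 and 0.05 in the clones and -0.17 on the pool array.

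**Figure D2:**
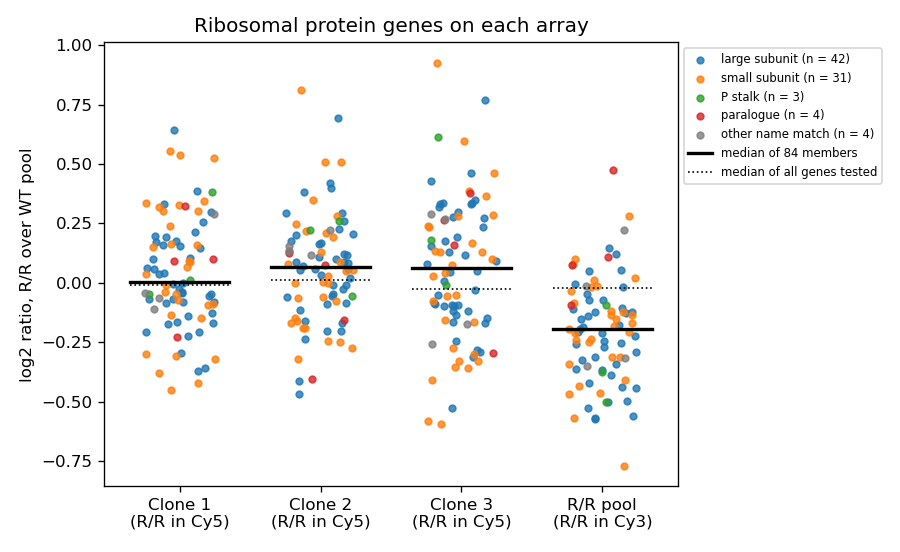
Log2 ratio of R/R over the WT pool (vertical axis) for the 84 members on each of the 4 arrays; each point is 1 gene, coloured by class, the solid line is the members' median and the dotted line the median of all genes tested. The members centre near 0 in the 3 clones and lower, at a median of -0.19, on the R/R pool array, where R/R RNA carried the other dye.

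The spots of these genes were among the brightest on the array. All 84 tested members were well above background in both channels of all 4 arrays, 80 lay in the brightest 10% of the genes tested, and no spot was saturated. Brightness is a property of a probe and gives no order of mRNA levels. Since such probes help to set the top of the loess curve, the curve was also fitted with the members' and the mitochondrial ribosome's probes at no weight; the median was then -0.11, with 0 members called. Many ribosomal protein genes have processed pseudogenes and retrocopies that are nearly identical to them, and the files hold no probe sequences, so a probe's signal can include such copies.

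Among the large subunit genes, which build the peptidyl transferase centre and exit tunnel, the median was -0.10. Of these 42 genes 5 were above 0 and 0 were called, against 46.4% and 0.513% of all genes. Rpl17, whose protein lies near the tunnel exit, had the lowest value of all members. Its ratios were -0.36 in clone 1, -0.11 in clone 2, -0.53 in clone 3 and -0.56 on the pool array. All 4 arrays were below 0, with clone 2 nearest to it, and the fit gave -0.45 ± 0.11 (SE, 3 clones and 1 pool; limma adjusted p = 0.171), which did not pass. Under the 17 alternatives Rpl17 ranged from -0.50 to -0.34, with adjusted p of 0.063 to 0.78. It was the member with most probes, 7, and these gave fitted values of -0.45 to -0.25, with all 28 single values below 0. The probes did not order the arrays alike. In the brightest probe the pool was at -0.56 and clone 2 at -0.11, whereas in the sixth brightest probe the pool was at -0.01 and clone 2 at -0.56. Probes of 1 gene on 1 array share the same RNA and are not replicates.

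**Figure D3:**
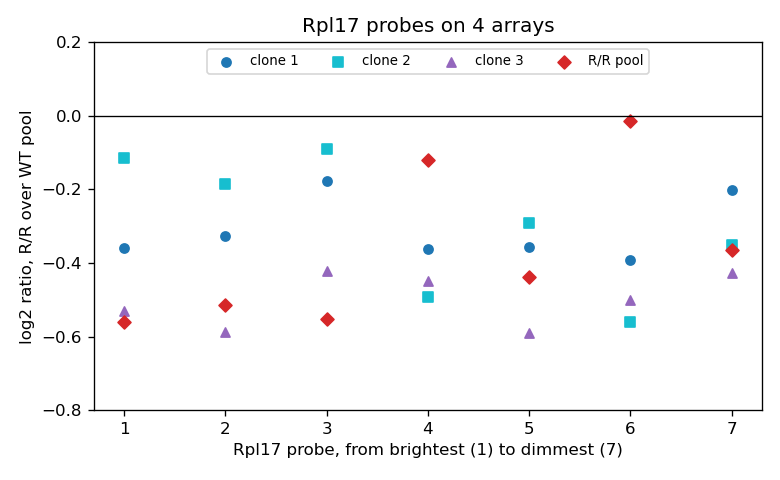
Log2 ratio of R/R over the WT pool (vertical axis) for each of the 7 Rpl17 probes, ordered from brightest to dimmest; symbols are the 4 arrays. All 28 values are below 0, and the array nearest to 0 differs between probes.

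The other large subunit genes with low values were Rpl8, a protein at the peptidyl transferase centre, at -0.25 ± 0.10, Rpl10a, of the L1 stalk, at -0.23 ± 0.09, and Rpl3 at -0.21 ± 0.09 (limma adjusted p of 0.336, 0.324 and 0.367). Rpl3 was below 0 on every array, from -0.28 to -0.06. In their brightest probes Rpl8 and Rpl10a took both signs. Rpl8 ranged from -0.57 on the pool array to 0.23 in clone 2, and Rpl10a from -0.42 to 0.07 on the same arrays. On the clones alone these probes put Rpl8 at 0.08 and Rpl10a at -0.03. The other Rpl8 probe was below 0 on every array, from -0.31 to -0.20. The other Rpl10a probe took both signs, from -0.45 on the pool array to 0.13 in clone 2. At the other end, Rpl9 stood at 0.12 ± 0.19, Rpl11 at 0.11 ± 0.09 and Rpl19 at 0.10 ± 0.09. Rpl9 had the widest clone range of all members, at 0.15, -0.20 and 0.77 in clones 1, 2 and 3, with the pool at -0.01. The clones thus differed more from each other than the fitted value differs from 0. Rpl36a also varied, at -0.37, -0.47 and 0.18 in the clones and 0.15 on the pool array.

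Of the large subunit proteins known to bind MDM2, Rpl11 had ratios of 0.30, 0.38 and 0.43 in the clones and -0.15 on the pool array in its brightest probe. Neither other Rpl11 probe put all clones above 0, the mean of its probes was 0.02, and with the scanner software's ratios the pool stood at 0.21, beside clones at 0.28, 0.24 and 0.37. Its partner in the 5S particle, Rpl5, had -0.07, -0.03 and 0.32 in the clones and -0.11 on the pool array, with a fitted value of -0.02 ± 0.11. Rpl23 stood at -0.13 ± 0.09, with 0.33, 0.20 and 0.15 in the clones and -0.50 on the pool array in its brightest probe. Its dimmest probe gave -0.21, -0.35 and -0.42 in the clones and -0.06 on the pool array. Rpl26, which also binds p53 mRNA, was below 0 on all 4 arrays, from -0.25 to -0.06, and had a fitted value of -0.15 ± 0.09 (adjusted p = 0.476). Rpl22, whose loss impairs lymphocyte development, stood at -0.08 ± 0.09, with clone 1 at 0.04 and the other 3 arrays between -0.16 and -0.07. Its second probe gave -0.27. Rpl35a, a Diamond-Blackfan gene, stood at -0.11 ± 0.09.

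Among the small subunit genes the median was -0.09. Of these 31 genes 8 were above 0 and 0 were called, against 46.4% and 0.513% of all genes. Rps23, a decoding centre protein, had the highest value of all members, with ratios of 0.32 in clone 1, 0.81 in clone 2, 0.13 in clone 3 and 0.28 on the pool array. It was above 0 on every array with clone 2 well above the rest, and the fit gave 0.35 ± 0.15 (limma adjusted p = 0.347), which did not pass. Its single probe gave 0.25 to 0.50 under the 17 alternatives. Rps16 stood at 0.15 ± 0.09. In its brightest probe the clones were at 0.53, 0.51 and 0.60 and the pool at -0.25. Its second brightest probe was arranged alike, with the clones at 0.38, 0.20 and 0.53 and the pool at -0.09. Its dimmest probe, also well above background on all arrays, was not. There the clones were at -0.10, -0.08 and 0.04 and the pool at 0.24. On the clones alone and with the brightest probe, Rps16 had the smallest limma adjusted p of any member, 0.077, which did not pass. With the scanner software's ratios the pool value of Rps16 was 0.05 and the clones were at 0.51, 0.41 and 0.59.

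The lowest small subunit values were those of Rps12 at -0.28 ± 0.12, of Rps6, the substrate of the S6 kinases, at -0.27 ± 0.12, and of Rps18 at -0.25 ± 0.14. Each of these took its lowest value on the pool array or in clone 3, and clone 2 was at -0.06, 0.14 and 0.00. On the clones alone Rps12 stood at -0.08 and Rps6 at -0.10. The second probe gave -0.11 for Rps12 and -0.01 for Rps18, and the other Rps6 probes gave -0.25 and -0.13. In their brightest probes Rps3a1 (-0.23 ± 0.12) and Rps15a (-0.20 ± 0.10) were below 0 on all 4 arrays, with limma adjusted p of 0.434 and 0.394. The other Rps3a1 probe was also below 0 on every array, whereas the other kept Rps15a probes had the pool at 0.04 and 0.03. Rpl17 and Rpl10a, described above, were among the 3 members with an unadjusted p under 0.05. By the brightest probe, 12 members were below 0 on every array and 2 above, Rps23 and the paralogue Rpl7l1. The 4 arrays share the WT pool, and 30.8% of all genes had 1 sign on all 4, against 16.7% of the members.

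The genes examined here that are linked to Diamond-Blackfan anaemia or to the 5q- syndrome lay near 0 in the fit. Rps19, the gene most often mutated in that anaemia, stood at -0.10 ± 0.10, Rps24 at -0.01 ± 0.09, Rps26 at -0.01 ± 0.09 and Rps10 at -0.13 ± 0.09. Rps14, the 5q- gene, stood at -0.17 ± 0.17 and had the lowest value of any member on the pool array, -0.77, and the highest of any member in clone 3, 0.93, with 0.24 and 0.13 in clones 1 and 2. Its clone mean was 0.43 on the clones alone, so the fitted value joins results of opposite sign. Rps10 was arranged in the same way, at 0.34, 0.21 and 0.39 in the clones and -0.57 on the pool array. With the scanner software's ratios the pool values were -0.46 for Rps14 and -0.24 for Rps10. Rps7, another MDM2-binding protein, stood at 0.01 ± 0.12, with clone 2 at 0.28 and clones 1 and 3 at -0.14 and -0.16.

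The P stalk genes had fitted values of -0.05 (Rplp0), -0.03 (Rplp1) and -0.14 (Rplp2), and 0 of 3 were called, against 0.513% of all genes. Rplp0 stood at 0.38, 0.22 and 0.61 in the clones and at -0.50 on the pool array in its brightest probe, while its dimmest probe gave -0.15, -0.36 and 0.12 in the clones and 0.06 on the pool array. In their brightest probes all 3 lay below 0 on the pool array.

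**Figure D4:**
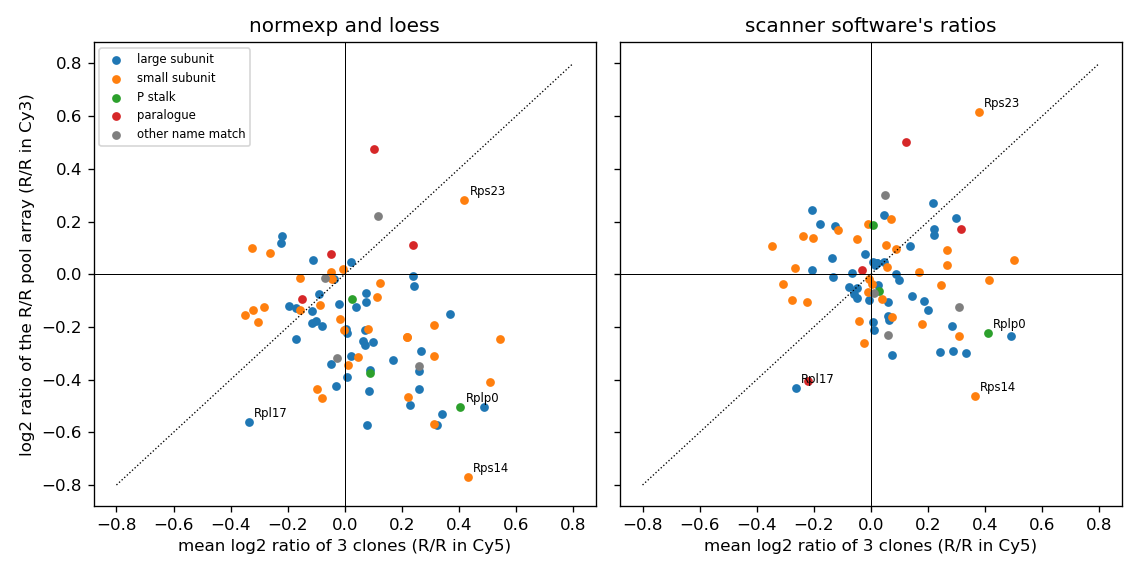
Mean log2 ratio of the 3 clones (horizontal axis, R/R in Cy5) against the log2 ratio on the R/R pool array (vertical axis, R/R in Cy3) for the 84 members, with the normalisation used here (left) and the scanner software's ratios (right); the dotted line marks equal values. On the left 26 members have all clones above 0 and the pool below 0, on the right 16, whereas Rps23 and Rpl17 keep 1 sign on both axes in both panels.

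Of the paralogues, which resemble core genes and are often expressed in restricted tissues, 4 were tested and 0 called, against 0.513% of all genes. Rpl22l1, the paralogue of Rpl22, had ratios of 0.09, -0.16 and 0.38 in clones 1, 2 and 3 and 0.47 on the pool array, and a fitted value of 0.29 ± 0.13 (limma adjusted p = 0.357), or 0.10 on the clones alone. It was the member with the highest pool value. Rpl7l1 was above 0 on all arrays, from 0.11 to 0.32, with a fitted value of 0.17 ± 0.09. Rpl36al stood at 0.01 ± 0.14, with clone 2 at -0.41 and the other arrays between 0.08 and 0.16, and Rpl10l at -0.12 ± 0.11. Rpl39l and Rpl3l, known from testis and from muscle, were not well above background in either channel of any array, and Rps4l was so in the R/R channel of 2 arrays and the WT channel of 1. The 4 other names were Rps19bp1, a binding partner of RPS19 and not a ribosomal protein, at 0.17 ± 0.10, and Rps23rg1, Rpl32l and Rpl37rt, names outside the core set, at -0.04, -0.17 and -0.045.

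Several probes were kept for 51 of the 84 genes, and in these the probes' fitted values spread over a median of 0.091. The widest spread was 0.28, in Rpl39, from -0.16 to 0.12. A fitted value averages clones and pool, so probes that differ in opposite directions in these can have like fitted values, as in Rps16. With the mean of a gene's probes in place of the brightest one, 19 members were above 0 and 65 below, and 0 were called.

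The ribosomal proteins outside the name rule behaved within the same range: Rack1 stood at 0.05 ± 0.13 and Fau at -0.09 ± 0.09. Of 15 other TOP mRNA and TOP regulator genes 0 were called, 3 were above 0 and the median was -0.12. Among these, Eif4b, an initiation factor, stood at -0.40 ± 0.09 (limma adjusted p = 0.160) and the elongation factor genes Eef1g and Eef2 at -0.36 ± 0.09 and -0.26 ± 0.12. On the clones alone Eef1g stood at -0.15 and Eef2 at -0.06, with Eef2 above 0 in clones 1 and 2. At the upper end were Eif3h at 0.15, Larp1 at 0.12 and Naca at 0.03. With the mean of a gene's probes Eif4b stood at -0.234, Eef1g at -0.315, Eif3h at 0.07 and Larp1 at 0.021. Eef2 and Naca kept their values. Clone 3 and the pool array gave the list medians of -0.18 and -0.19, and clones 1 and 2 gave -0.03 and 0.03. Of 9 chaperone and export genes for ribosomal proteins 0 were called and 7 were above 0, with a median of 0.13. Beside the TOP and the chaperone lists, 0.513% of all genes were called and 46.4% were above 0, with a median of -0.02. Rrs1, needed to load the 5S particle, stood at 0.35 ± 0.10 and was above 0 on all arrays, from 0.26 to 0.60, but did not pass (adjusted p = 0.190; 0.039 when the pool was fitted as a further replicate with no dye term). Grwd1, which escorts RPL3, stood at 0.28 ± 0.09 and Bccip at 0.16 ± 0.16, while Ltv1 stood at 0.07, Pdcd2 at -0.22 and Heatr3 at -0.36. Heatr3, which imports RPL5, ranged from -0.93 in clone 3 to 0.35 in clone 2.

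The mitochondrial ribosome, encoded by separate nuclear genes, had values mostly above 0. Of its 77 tested genes 65 (84.4%) were above 0, against 46.4% of all genes, and the median was 0.20. In this list 1 gene was called higher (Mrpl36, 0.93 ± 0.10, limma adjusted p = 0.042) and 0 lower. Of all genes 0.145% were called higher and 0.369% lower. At an unadjusted p under 0.05, 27 were higher and 1 lower (36.4%), against 15.4% of all genes, 1459 higher and 1623 lower. Among the cytosolic genes 3 members were lower and 0 higher. Mrpl36, at 0.73, 1.00 and 0.90 in the clones and 0.98 on the pool array, was not called without clone 1, without clone 2, with the scanner ratios, with median centring or with scaling between arrays. The list's median was 0.14 to 0.26 on each of the 4 arrays, including the pool array, and 0.15 to 0.23 in the fit under the 17 alternatives. The difference between the cytosolic and the mitochondrial genes was not tested, and both lists were set with earlier results of these data known.

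**Figure D5:**
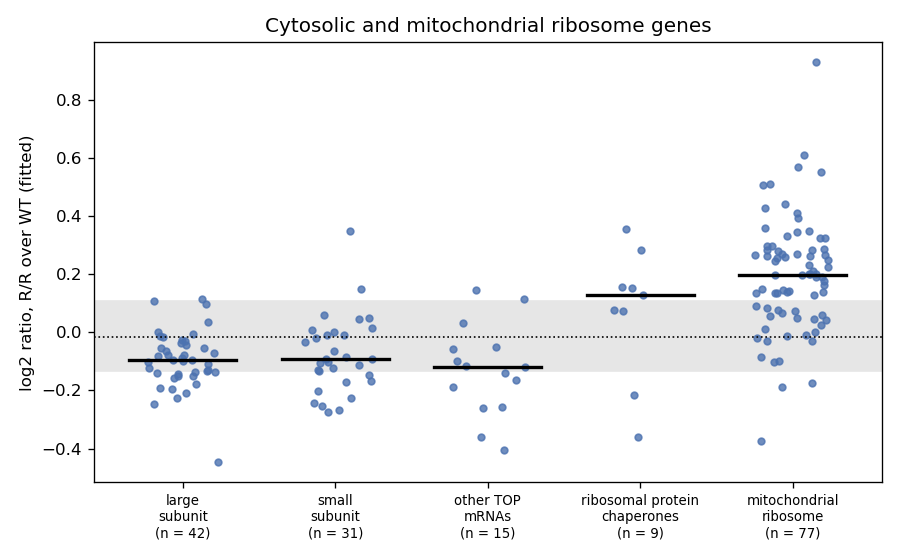
Fitted log2 ratio of R/R over WT (vertical axis) for the genes of 5 lists; each point is 1 gene, black bars are list medians, the dotted line is the median and the grey band the interquartile range of all 20066 genes tested. The cytosolic subunits centre at -0.10 and -0.09 and the mitochondrial ribosome at 0.20.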

How the data were processed

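RNA of 3 R/R clones and 1 R/R pool was compared with a WT pool on 4 two-colour arrays. Per the file headers, the deposited intensity values are uncorrected median spot and background brightnesses from Feature Extraction 11.5.1.1, and the log10 values are ratios of processed Cy5 over Cy3. The log2 values deposited by the authors correlated by spot position with those computed here (r of 0.989 to 0.997 across spots) and had medians of -0.001 to 0.004; their making is not given in the sources used here. Their row numbers name no probe, so they served for this check alone.

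Signals were corrected with limma 3.58.1 (R 4.3.3) by normexp (offset 50) and loess, with control spots at weight 0; 210 to 265 outlier spots per array were left out. Between 42.8% and 53.4% of spots per channel were well above background. Of 55681 probes, 27656 had 1 symbol, 0 several and 28025 none, through RefSeq accessions. A probe was kept where 3 or more of the 4 arrays found it well above background in 1 channel, R/R or WT. The brightest probe stood for its gene. The limma model had a genotype and a dye term, so the genotype value is the mean of the clone mean and the pool. The clones supply its 2 residual degrees of freedom, and limma's moderation over all genes tested gave a total of 5.521. Two-sided p-values were adjusted by Benjamini-Hochberg over 20066 genes, and the fit was tested on simulated data. The number of arrays limits the precision. All arrays lay on 1 slide.

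The members and lists were chosen with earlier results of these data known. Named genes were the 10 highest, the 10 lowest and the 5 with the widest clone range; the paralogues, Rps19bp1, MDM2-binding, Diamond-Blackfan, 5q- and Rpl22 genes; and the 3 highest and 3 lowest of the TOP and chaperone lists. Other genes, among them Rplp0 to Rplp2, Rpl39, Mrpl36, Rack1, Fau, Rps21, Rps4x, Rpl7a, Rps23rg1, Rpl32l and Rpl37rt, were named after their values were seen. A few genes are not reported here by name, though they stay in the counts and medians. Alternatives were the scanner ratios, offset 16, median centring, loess without ribosomal probes, saturated spots left out, scaling, other filters, the mean of probes, a fit without the pool, one without the dye term, an average of clones 1 and 2, leaving out single clones, a threshold of 0.10 and an intensity trend in the variance.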

Additional observations from a re-analysis of the deposited data

Results flagged for a closer look

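In the brightest probes the members' median lay above 0 in every clone, at 0.005 in clone 1. On the R/R pool array it was -0.194. With the mean of a gene's probes it was -0.029, -0.004 and 0.049 in clones 1, 2 and 3 and -0.171 on the pool array. The arrangement of clones above 0 and pool below was seen in 8 of 31 named members. It was seen in 31.0% of all 84 members and in 6.33% of all genes. All 3 clones were above 0 and the pool array below 0 in Rps14 (pool -0.77), Rps10 (-0.57), Rpl23 (-0.50), Rps16 (-0.25), Rps24 (-0.24), Rps26 (-0.24), Rpl11 (-0.15) and Rpl19 (-0.046), each in its brightest probe. With the scanner software's ratios the pool was above 0 in 4 of these: Rpl11 (0.21), Rpl19 (0.17), Rps16 (0.05) and Rps24 (0.01). Other probes were kept for 4 of the 8 genes. Rps24 and Rpl23 each had a probe with all clones below 0 (-0.37 to -0.18 and -0.42 to -0.21), as had Rpl11 (-0.09 to -0.04). The second brightest Rps16 probe was arranged like the brightest, with the pool at -0.09, and the dimmest had the pool at 0.24. The difference between clones and pool was not tested, since the pool is 1 array. Its RNA and its dye orientation changed together and cannot be told apart.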

How the results depend on the processing

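Under all 17 alternatives 0 members were called higher and 0 lower. The smallest limma adjusted p of any member ranged from 0.063 (no dye term) to 0.78 (scaling between arrays). No spot was saturated, so leaving out saturated spots repeated the main fit and could change no value. It is still counted among the alternatives here and below. The members' median of -0.09 became 0.017 with the scanner ratios and 0.024 on the clones alone, and was -0.125 with median centring, -0.056 with scaling between arrays and -0.03 with no dye term. Leaving out 1 clone gave medians of -0.096 to -0.081. At an unadjusted p under 0.05 the members numbered 0 to 26, the most on the clones alone. Of 731 values of 43 named genes under alternatives, 730 stayed on the same side of the threshold and 1, Rrs1 with no dye term, passed it (0.40). Over all genes, 29 were called higher and 74 lower; these counts were 4 and 42 under the scanner ratios, 2 and 28 under median centring, 0 and 0 with scaling, 488 and 647 with no dye term, 44 and 98 on the clones alone, 11 and 47 without clone 1, 17 and 58 without clone 2, 84 and 174 without clone 3, 25 and 48 with the stricter filter, 20 and 56 with none and 106 and 202 at a threshold of 0.10. Each ratio already sets R/R RNA against the WT pool on the same array. No further pairing was fitted, since the labels pair no clone with the R/R pool. The deposited log2 table was not run as an alternative, since its rows could not be tied to a probe. With 1 WT pool, 2 residual degrees of freedom and near-identical gene copies, a missing call does not show equal expression.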
